A study of Mus musculus with 8 samples.

Results

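Cdx1, Cdx2, Hnf4a, Hnf4g, Gata4, Gata5, Gata6 and Elf3 encode transcription factors that set and keep the identity of the intestinal epithelium, and their signals are described here in lower crypts of the mouse jejunum after etoposide. The 8 genes were found by name among 39429 non-control array probes for 30325 named genes, with 1 probe each. All 8 were among the 19528 genes tested. The data are 8 single-colour Agilent arrays, 1 per mouse, 4 from fasted and 4 from fed mice. All 8 mice carried the Lgr5EGFP-IRES-CreERT2/+ allele, which places a fluorescent reporter and a Cre recombinase under Lgr5, a gene of crypt base stem cells. They were 4 to 6 weeks old, and 2 of the 4 in each group were labelled female. Etoposide, which traps topoisomerase II on cut DNA, was given to all of them at 80 mg/kg into the tail vein. The fasted mice had gone without food for 24 h before the injection and the fed mice had not. All mice were then housed singly with moistened pellets, and the intestine was taken 3 h later. Mice without etoposide are not part of these arrays, and fasting cannot be told apart from the food offered after it. The lower crypts were cut from fixed paraffin sections by laser capture, so an array reads a mixture of the cells at the crypt base.

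These factors work as a network. CDX1 and CDX2 are homeodomain proteins that specify the intestine and keep it from taking on the character of other gut regions. HNF4A and HNF4G are nuclear receptors that switch on digestive and lipid-handling genes as cells leave the crypt. GATA4, GATA5 and GATA6 are zinc finger proteins, of which GATA4 marks the duodenum and jejunum and holds ileal genes down there. ELF3 is an epithelial ETS factor needed for the maturation of enterocytes and goblet cells.

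The share of probes well above background ran from 53.2% to 65.4% over the arrays. Fasted replicate 3 was least like the rest (correlation over all genes 0.827 to 0.925) and alone was scanned on the later day. Fed replicate 4, labelled female, held Xist, which is transcribed from the inactive X chromosome, at a log2 signal of 4.69, not well above background, against 13.09 to 13.69 on the other 3 arrays labelled female. It held the Y-linked Eif2s3y at 9.31, against 5.05 to 5.29 on those arrays, so its transcripts go against its sex label. A slide was shared by fasted and fed replicate 1, another by fasted replicate 2 and fed replicate 3, and another by fasted and fed replicate 4. They are called here slides A, B and C. All 10 epithelial markers listed passed the detection filter (4 or more of the 8 arrays well above background), as did 10 of 10 measured Paneth cell markers. Of 16 stem cell markers found by name on the arrays 15 passed. Lgr5 did not, being well above background on 0 of 8 arrays. Of 17 leukocyte names listed 9 passed, and of 13 markers of other gut regions 5 passed. Among the leukocyte names, Emr1 and Igj are older symbols that were not matched, so they count as not passing without having been looked up. Adgre1, the present name of Emr1, is listed too and passed. In bulk captures fewer cells of a type and less RNA per cell cannot be told apart.

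Levels below are log2 signals minus the 75th percentile of the same array, so a level of 0 is that percentile. The brightness of a probe depends on its own letters, so levels of different genes are not ranked against each other. Differences are fasted minus fed, fitted in limma with labelled sex as a term, and p-values are adjusted over all genes tested by the Benjamini-Hochberg method.

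Cdx2 lay higher in fasted crypts. Its levels were 2.16, 1.70, 2.21 and 1.29 in fasted replicates 1 to 4, and 1.17, 1.21, 1.19 and 0.80 in fed replicates 1 to 4. The lowest fasted array lay above the highest fed array, by 0.077, and fed replicate 4 lay below the other fed arrays. The means were 1.84 ± 0.43 and 1.09 ± 0.20 (SD, n = 4 each), and the fitted difference was 0.75 (SE 0.25), a 1.68-fold higher signal in fasted crypts with a 95% interval of 1.13 to 2.5. It did not pass limma's test over all genes (unadjusted p = 0.017, adjusted p = 0.788). The exact 2-sided permutation p over the 70 assignments of arrays was 0.0286, the smallest that 4 against 4 can give, which any gene whose groups do not overlap reaches. It treats the arrays as independent, though 6 of the 8 share a slide with another. On slides A, B and C Cdx2 differed by 0.99, 0.51 and 0.49, and by 0.66 with slide, not sex, as a block (SE 0.18, adjusted p = 0.265 in limma). Its probe, A_52_P177490, lies at chr5:148112547-148112606 on the minus strand of mouse build mm9, the build named in the file headers.

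Cdx1, the other intestinal CDX gene, did not separate the groups. Its levels were 3.00, 2.91, 3.72 and 2.74 in fasted replicates 1 to 4 and 3.23, 3.11, 2.63 and 2.498 in fed replicates 1 to 4. The groups overlapped, and fasted replicate 3 held the highest value. The fitted difference was 0.22 (SE 0.27), with a 95% interval from -0.40 to 0.85 and an adjusted p of 0.838 in limma. Without fasted replicate 3 it was -0.06. On slides A, B and C it was -0.23, 0.28 and 0.24, and 0.10 (SE 0.17) with slide as a block. On an array, Cdx2 minus Cdx1 differed between the groups by 0.52. That comparison was 1 of 4 between related members, chosen after their values were seen, and gave an exact permutation p of 0.0857, or 0.171 adjusted over the 4. The probe for Cdx1 lies at chr18:61178558-61178617.

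Hnf4a had the smallest spread of the 8. Its levels were 2.14, 2.14, 2.28 and 2.06 in fasted replicates 1 to 4, and 1.86, 1.96, 1.86 and 1.91 in fed replicates 1 to 4. All fasted arrays lay above all fed arrays, with a gap of 0.10. The means were 2.15 ± 0.09 and 1.90 ± 0.05 (SD, n = 4 each), against a median SD over all genes of 0.48 in the fasted and 0.40 in the fed group. Only 1.76% of genes had a smaller SD among the fasted arrays and 0.242% among the fed arrays. These shares were counted with the 75th percentile scaling only. In the authors' deposited matrix the fed values of Hnf4a ran more widely, from 12.65 to 12.93. The fitted difference was 0.26 (SE 0.16), a 1.2-fold higher signal in fasted crypts with a 95% interval of 0.93 to 1.54. The exact permutation p was again 0.0286. The unadjusted p in limma, which draws a gene's variance towards that of genes of like signal, was 0.145, and the adjusted p was 0.788. The differences on slides A, B and C were 0.28, 0.28 and 0.15, and the value with slide as a block was 0.24 (SE 0.15). The probe for Hnf4a, A_55_P1959633, lies at chr2:163398548-163398607 on the plus strand in mm9.

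Hnf4g, the paralogue that acts beside Hnf4a in the villus, was the 1 member not measured on every array. Its levels were -1.45, -2.03, -4.42 and -2.52 in fasted replicates 1 to 4, and -2.84, -5.44, -3.64 and -3.17 in fed replicates 1 to 4. Fasted replicate 3 and fed replicate 2 were not well above background, so no level was measured there. On the other 6 arrays every fasted value lay above every fed value, with means of -2.001 ± 0.538 and -3.217 ± 0.401 (SD, n = 3 each). The arrays left out held the lowest value of their groups. The share of all genes that separate at 3 against 3 was not counted. Over all 8 arrays the groups overlapped, and the fitted difference was 1.17 (SE 0.80), with a 95% interval from -0.66 to 3.00 and an adjusted p of 0.788 in limma. It was 0.40 without fed replicate 2 and 1.79 without fasted replicate 3. Within the shared slides, where all values were well above background, Hnf4g differed by 1.40, 1.61 and 0.65, or by 1.22 (SE 0.36) with slide as a block (adjusted p = 0.295 in limma). Its probe lies at chr3:3657265-3657324.

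**Figure D1:**
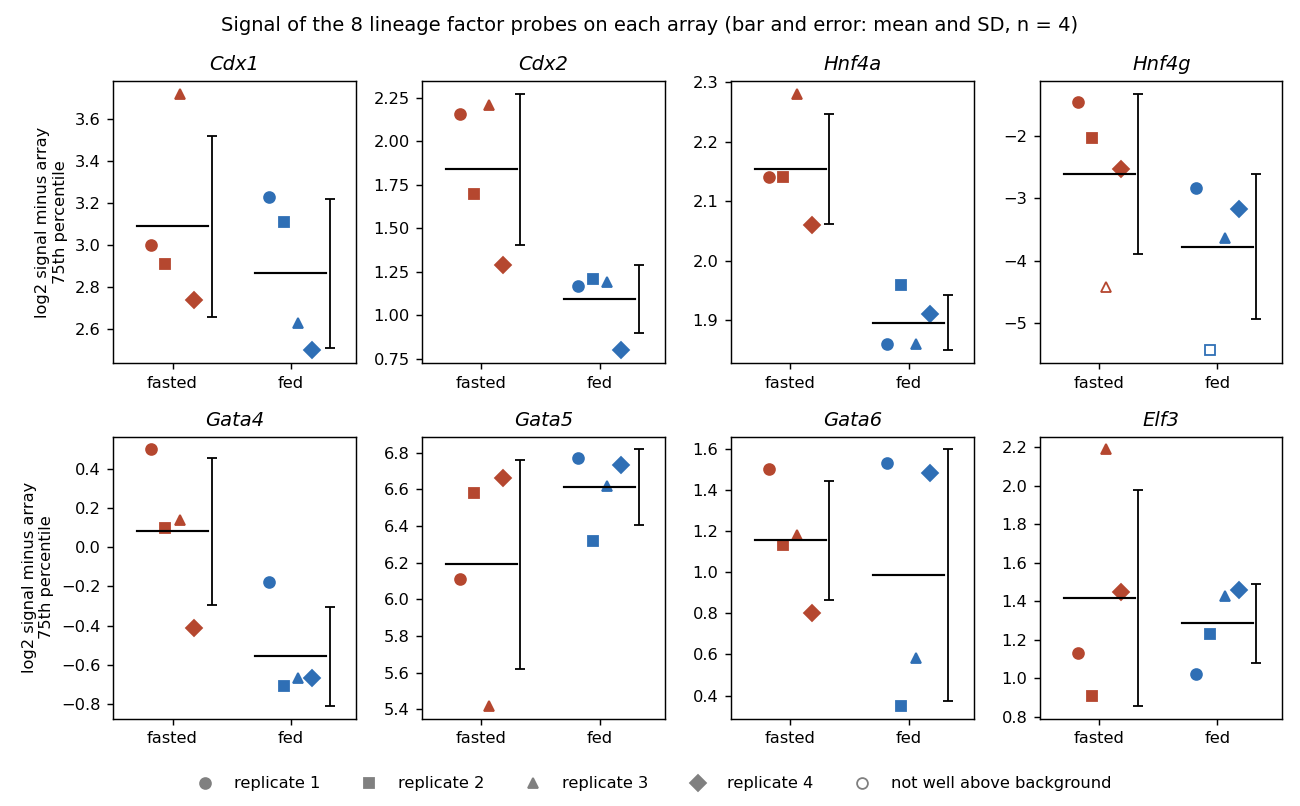
Each panel plots 1 of the 8 genes, with the log2 signal minus the array's 75th percentile on the y axis, 1 point per array, and the mean and SD of 4 arrays as a line and an error bar. Cdx2 and Hnf4a are the genes whose fasted points all lie above their fed points, by 0.077 and 0.10, and the open symbols for Hnf4g are arrays not well above background.

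Gata6, the GATA factor of crypt base cells, did not separate the groups. Its levels were 1.503, 1.13, 1.18 and 0.80 in fasted replicates 1 to 4, and 1.53, 0.35, 0.58 and 1.48 in fed replicates 1 to 4. The fed arrays lay as a high and a low pair, with fasted replicate 1 between the values of the high pair and the other fasted arrays between the pairs (SD 0.61 among fed and 0.29 among fasted arrays). The fitted difference was 0.17 (SE 0.33), with a 95% interval from -0.59 to 0.93 and an adjusted p of 0.898 in limma. Within the shared slides the difference took both signs, at -0.03, 0.55 and -0.68, and it was -0.05 (SE 0.25) with slide as a block. The probe for Gata6 lies at chr18:11085039-11085097.

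Gata4 lay higher in fasted crypts with a small overlap. Its levels were 0.50, 0.10, 0.14 and -0.41 in fasted replicates 1 to 4, and -0.18, -0.71, -0.67 and -0.67 in fed replicates 1 to 4. Fed replicate 1 lay above the other 3 fed arrays and above fasted replicate 4. The means were 0.08 ± 0.38 and -0.56 ± 0.25 (SD, n = 4 each). The fitted difference was 0.64 (SE 0.25), a 1.56-fold higher signal with a 95% interval of 1.05 to 2.30, an unadjusted p of 0.0312 and an adjusted p of 0.788 in limma. The exact permutation p was 0.0571. Within the shared slides it differed by 0.68, 0.77 and 0.25, and with slide as a block by 0.57 (SE 0.21, adjusted p = 0.342 in limma). The probe for Gata4, A_55_P2028894, lies at chr14:63817858-63817917.

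The Gata5 probe was the 1 member with a fitted difference below 0. Its levels were 6.11, 6.58, 5.42 and 6.66 in fasted replicates 1 to 4, and 6.77, 6.32, 6.62 and 6.73 in fed replicates 1 to 4. The groups overlapped, and fasted replicate 3 was lowest. The fitted difference was -0.42 (SE 0.28), with a 95% interval from -1.07 to 0.23 and an adjusted p of 0.788 in limma, and it was -0.13 without fasted replicate 3. Within the shared slides it was -0.66, -0.04 and -0.08, and -0.26 (SE 0.21) with slide as a block. The probe, A_55_P2046867, lies at chr2:180059867-180059926 in mm9. Its letters resemble the B1 family of short interspersed repeats, which are scattered through mouse introns and transcript ends, but no repeat annotation was used here to check that. At least 1 run of 16 bases of this probe, whichever its position, was shared on either strand by 11 of the 39428 other probes and by 47 of 32851 RefSeq promoter windows. The probes for Cdx2, Hnf4a, Hnf4g, Gata4 and Elf3 shared such a run with 0 probes and 0 windows, that for Cdx1 with 1 probe and 0 windows, and that for Gata6 with 1 probe and 2 windows. Stretches of 30 bases are shown to set the Gata5 probe (bases 25 to 54) beside bases 1 to 30 of the probes for Cdx2 and Hnf4a, and the capitals mark the single run of 16 bases found in the most promoter windows, 35 of them.
Gata5: tagctCTGGCTGTCCTGGAACtcattatgt
Cdx2: gccttttaaaaagccttcttgatccatggg
Hnf4a: ggggtaaaaaagagaaaaagccctcaaaaa
Whether RNA from other places with such letters adds to the Gata5 signal was not tested, so the value is that of the probe and may not be that of the gene.

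Elf3 did not separate the groups. Its levels were 1.13, 0.91, 2.19 and 1.45 in fasted replicates 1 to 4, and 1.02, 1.23, 1.43 and 1.46 in fed replicates 1 to 4. The fed values lay inside the fasted range, and fasted replicate 3 was the highest array. The fitted difference was 0.13 (SE 0.23), with a 95% interval from -0.40 to 0.66 and an adjusted p of 0.888 in limma. It was -0.07 without fasted replicate 3, and within the shared slides it was 0.10, -0.53 and -0.02, or -0.15 (SE 0.19) with slide as a block. The probe for Elf3 lies at chr1:137150328-137150387.

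Of the 8 genes, 7 had a fitted difference above 0, and the median was 0.24, where the median over all genes tested was -0.06 and 44.5% of genes lay above 0. In limma's test 0 of 8 members and 0% of all genes passed the adjusted threshold of 0.05. An unadjusted p under 0.05 was found for 2 members, Cdx2 and Gata4, both higher in fasted crypts, beside 5.95% of all genes in either direction and 3.93% in that one. The groups did not overlap for 2 members, Cdx2 and Hnf4a, again with the fasted arrays higher. Over all genes measured on every array the groups did not overlap for 4.97%, with the fasted arrays higher for 2.99% and lower for 1.98%. Scaled by the median of each array instead, neither gene separated the groups, with normexp background correction Hnf4a did and Cdx2 did not, and in the authors' deposited matrix Cdx2 did and Hnf4a did not. Cdx2, Hnf4a, Hnf4g and Gata4 were higher in the fasted array on all 3 shared slides, as were 18% of all genes. Gata5 was lower on all 3, as were 22% of all genes.

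**Figure D2:**
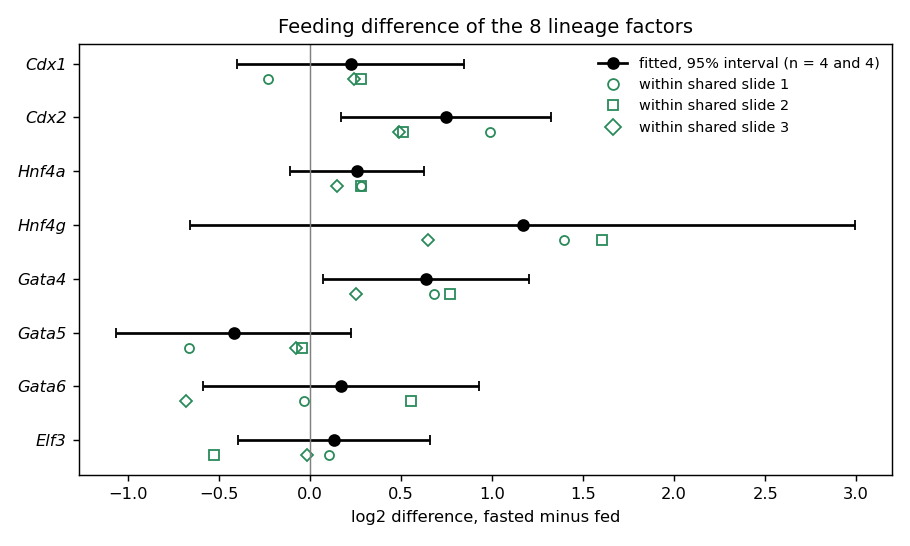
The x axis is the log2 difference, fasted minus fed, for the 8 genes; black points are fitted differences with 95% intervals from 4 fasted and 4 fed arrays, and green symbols are differences between the 2 arrays of a shared slide. The intervals of Cdx2 and Gata4 lie above 0 before adjustment over all genes, and the green symbols of Gata6, Cdx1 and Elf3 fall on both sides of 0.

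Markers of absorptive enterocytes lay higher in the same arrays. Of 26 tested enterocyte markers 25 lay higher in fasted crypts, with a median difference of 1.04, and their summed signal, in multiples of the array's 75th percentile, ran from 197 to 324 on fasted and from 113 to 178 on fed arrays. Of the general epithelial markers 4 of 10 were higher, the median was -0.08, and their summed signal ran from 238 to 299 on fasted and from 270 to 303 on fed arrays. All 10 tested Paneth cell markers lay lower in fasted crypts (median -0.39), with a summed signal of 397 to 501 against 513 to 734. On slides A, B and C the median over the enterocyte markers was 1.29, 1.25 and 0.60, and that over the Paneth cell markers -0.98, -0.35 and -0.02. The part of these cell types in the values of Cdx2, Hnf4a and Gata4 was not tested.

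The promoters of Cdx2 and Hnf4a, the members whose groups did not overlap, are shown for their letters. RefSeq lists 2 starts for Hnf4a, 40298 bases apart, which make different amino ends and are both used in the intestine. The arrays hold 1 probe for Hnf4a, so the products of its starts were not measured apart. Of the 8 genes 4 were matched in the RefSeq promoter table. Each window holds the 250 bases before a start in build GRCm38.p6, 5′ to 3′ along the gene, and capitals mark motif matches on either strand. The motifs searched were AGATAA or TGATAA, and AGATAG or TGATAG, for GATA factors, TTTATG and TTTATT for CDX, CAAAGTCCA and CAAAGGTCA for HNF4, and TATAAA for the TATA box. The windows are chr5:147307250-147307499 on the minus strand for Cdx2, and chr2:163506607-163506856 and chr2:163546905-163547154 on the plus strand for the upstream and downstream start of Hnf4a.
Cdx2: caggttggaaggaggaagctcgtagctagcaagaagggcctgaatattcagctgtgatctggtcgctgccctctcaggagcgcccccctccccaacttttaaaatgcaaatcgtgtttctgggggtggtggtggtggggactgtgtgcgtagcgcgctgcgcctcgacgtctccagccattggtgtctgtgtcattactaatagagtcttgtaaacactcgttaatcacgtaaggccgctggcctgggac
Hnf4a upstream start: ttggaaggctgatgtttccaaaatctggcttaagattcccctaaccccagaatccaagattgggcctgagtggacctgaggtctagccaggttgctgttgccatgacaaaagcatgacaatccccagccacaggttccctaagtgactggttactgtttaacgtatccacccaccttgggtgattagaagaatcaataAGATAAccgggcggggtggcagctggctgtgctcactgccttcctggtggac
Hnf4a downstream start: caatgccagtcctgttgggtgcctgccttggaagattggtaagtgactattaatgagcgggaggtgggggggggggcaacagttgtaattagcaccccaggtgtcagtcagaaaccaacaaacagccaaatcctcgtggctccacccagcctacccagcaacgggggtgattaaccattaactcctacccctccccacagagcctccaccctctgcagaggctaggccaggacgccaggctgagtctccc
The upstream Hnf4a window held 1 match to the GATA letters, where 26.5% of all 32851 windows held at least 1. The Cdx2 window and the downstream Hnf4a window held none of the letters searched. No CDX, HNF4 or TATA letters were found in these 3 windows, where 25.5%, 0.807% and 12.4% of all windows held them. A match describes the letters only.

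Relatives of these factors that belong to other tissues were mostly not detected. Of 10 listed genes 4 passed the filter, and Gata2, Gata3, Elf5, Nr2f1 and Nr2f2 were not well above background on any array, while Cdx4 was on 1. Gata2 is a factor of blood and endothelial cells and Gata3 of lymphocytes. The 4 that passed were Gata1 at a difference of -0.12, the epithelial ETS factors Ehf at 0.15 and Spdef, which drives goblet cells, at -0.18, and the orphan receptor Nr2f6 at 0.04. Their median was -0.04, 2 were higher and 2 lower, and the sign of the median turned to 0.03 with normexp background correction and 0.02 in the authors' deposited matrix.

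Partner and cofactor genes were split in direction. Of 20 tested members 11 were higher and 9 lower, and their median difference was 0.21. Over the 19 measured on all shared slides it was 0.32, 0.03 and 0.13 on slides A, B and C. None passed in limma over all genes, 6 had an unadjusted p under 0.05, all of them higher (3.93% over all genes), and 4 did not overlap between groups, all with the fasted arrays higher (2.99% over all genes). The median was 0.07 with normexp background correction and 0.13 in the authors' deposited matrix. Isx, an intestinal homeobox gene that lies downstream of CDX2, stood at 2.37 ± 0.29 over the fasted and 1.53 ± 0.29 over the fed arrays (SD, n = 4 each), a difference of 0.84 (SE 0.23) with an adjusted p of 0.788. Creb3l3, a lipid-responsive factor of enterocytes and liver, differed by 0.97 (SE 0.33), Maf, a factor of the enterocyte programme, by 0.76 (SE 0.27), and Zfpm1, the FOG1 cofactor that binds GATA proteins, by 0.58 (SE 0.21). Within the shared slides Isx differed by 0.80, 1.16 and 0.23 and Zfpm1 by 0.59, 0.61 and 0.44.

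Regulators that choose between crypt lineages lay on both sides of 0. Of 17 tested genes 9 lay above 0 and 8 below, and the median of 0.11 was -0.02 without fasted replicate 3 and fed replicate 4, and on slides A, B and C it was -0.42, 0.11 and 0.15. The median was 0.06 in the authors' deposited matrix. In limma 0 passed, and 3 had an unadjusted p under 0.05 (5.95% over all genes), 2 of them higher and 1 lower. Id1, an inhibitor of helix-loop-helix factors, was at 0.91 ± 0.34 over the fasted and 0.05 ± 0.39 over the fed arrays (SD, n = 4 each), a difference of 0.86 (SE 0.23). Gfi1, which acts in secretory cells, differed by 0.83 (SE 0.35). Neurog3, the enteroendocrine factor, differed by -0.64 (SE 0.25) and Sox4 by -0.56 (SE 0.29). All of these had an adjusted p of 0.788. Atoh1, which opens the secretory fate, was at -0.22 (SE 0.41), and Hes1, the Notch target that closes it, at 0.32 (SE 0.30).

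Most genes named as targets of CDX2, HNF4 and GATA4 had a fitted difference above 0, and 0 of them passed in limma over all genes. Many of them are enterocyte markers: 5 of 15 tested CDX2 targets, 14 of 19 HNF4 targets and 8 of 12 GATA4 targets also stand on the enterocyte list. That list is not complete, and Heph, Dgat2 and Abcg5 are among the targets not on it. A median of the targets off the list is therefore not one of targets outside enterocytes. The target lists share genes with each other too, so they are not separate results. Fabp1, Apoa1, Apoa4 and Apob stand on both the HNF4 and the GATA4 list. Lct and Sis stand on the CDX2 and GATA4 lists, and Alpi on the CDX2 and HNF4 lists. Some CDX2 targets, Vil1 and Cdh17 among them, also stand on the list of general epithelial markers, so those lists are not separate either. Of the CDX2 targets 13 of 15 were higher, with a median of 0.53, and the median of the 10 not on the enterocyte list was 0.20. An unadjusted p under 0.05 was found for 6 of the 15, all higher (3.93% over all genes), and the list's median on slides A, B and C was 0.80, 0.54 and 0.36. Heph, a ferroxidase that helps iron leave the enterocyte, differed by 0.88 (SE 0.28), Vil1, the microvillus protein villin, by 0.53 (SE 0.21) and Mep1a, a brush border protease, by 0.92 (SE 0.36). Cdh17, the intestinal cadherin, was at 0.26 (SE 0.22), and Gucy2c, the guanylin receptor, at 0.12 (SE 0.14). Gucy2c had SDs of 0.05 and 0.03. It was 1 of 5 among the 15 CDX2 targets whose fasted arrays all lay above their fed arrays (2.99% over all genes).

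Of the HNF4 targets 18 of 19 were higher, with a median of 0.89, where 44.5% of all genes lay above 0, and 8 had an unadjusted p under 0.05, all higher (3.93% over all genes). The median of the 5 not on the enterocyte list, Dgat2 among them, was 0.73. The median on slides A, B and C was 1.25, 1.16 and 0.44. Apob, the scaffold of chylomicrons, stood at 3.34 ± 0.29 over the fasted and 2.46 ± 0.26 over the fed arrays (SD, n = 4 each), and Mttp, which loads lipid onto it, differed by 1.101 (SE 0.334). Dgat2, which makes triglyceride, differed by 1.47 (SE 0.26), with the smallest unadjusted p of the list (0.00044). Enpep and Anpep, aminopeptidases of the brush border, differed by 1.92 (SE 0.44) and 1.71 (SE 0.45), and Enpep was well above background on 3 of 4 fed arrays. Of the GATA4 targets 10 of 12 were higher, with a median of 0.95, and 5 had an unadjusted p under 0.05, all higher, beside the same 44.5% and 3.93% over all genes. The median of the 4 not on the enterocyte list, Abcg5 among them, was 0.76. Being off that list does not place a gene outside enterocytes. The median of all 12 GATA4 targets on the slides was 1.32, 1.41 and 0.71. Among them were Abcg5, which pumps sterols back to the lumen, at 1.02 (SE 0.40), Apoa1, the main protein of high density lipoprotein, at 1.30 (SE 0.51), and Slc5a1, the sodium-coupled glucose carrier, at 0.83 (SE 0.31).

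Of the ileal genes that GATA4 holds down in jejunum 4 were tested, 3 with a difference above 0, and their median was 0.71 (1.19, 0.81 and 0.21 on slides A, B and C). Slc10a2, the ileal bile acid carrier, was well above background on none of the arrays. Slc51a and Slc51b, which together export bile acids, differed by 1.38 (SE 0.46) and 2.42 (SE 0.64), and Slc51b was well above background on 3 of 4 fed arrays. Fabp6, the ileal bile acid binding protein, was at -0.38 (SE 0.26) and Nr1h4, the bile acid receptor FXR, at 0.05 (SE 0.40). None passed over all genes in limma.

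The genes named as ELF3 targets mostly lay lower in fasted crypts. Of 8 tested genes 7 had a difference below 0, where 44.5% of all genes lay above 0. The median was -0.30, and 0 passed in limma. Krt8, Krt18 and Cldn7, all of them lower, also stand on the list of general epithelial markers, of which 6 of 10 were lower (median -0.08). The median of the ELF3 targets was -0.14 with quantile normalization and -0.19 in the authors' deposited matrix. On slides A, B and C it was -0.67, -0.48 and 0.005, so slide C did not share it. Krt18, an epithelial keratin, was at 4.96 ± 0.34 over the fasted and 5.46 ± 0.20 over the fed arrays (SD, n = 4 each), a difference of -0.50 (SE 0.21). Spink4, a goblet cell product, differed by -0.36 (SE 0.18), and Tgfbr2, a receptor gene that ELF3 controls in the gut, by -0.38 (SE 0.32). Krt20, a keratin of mature epithelium, was the 1 member higher, at 0.51 (SE 0.23). Spink4 is also a goblet cell marker, and of 11 tested goblet cell markers 9 lay lower (median -0.20). The part of goblet cells was not tested.

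**Figure D3:**
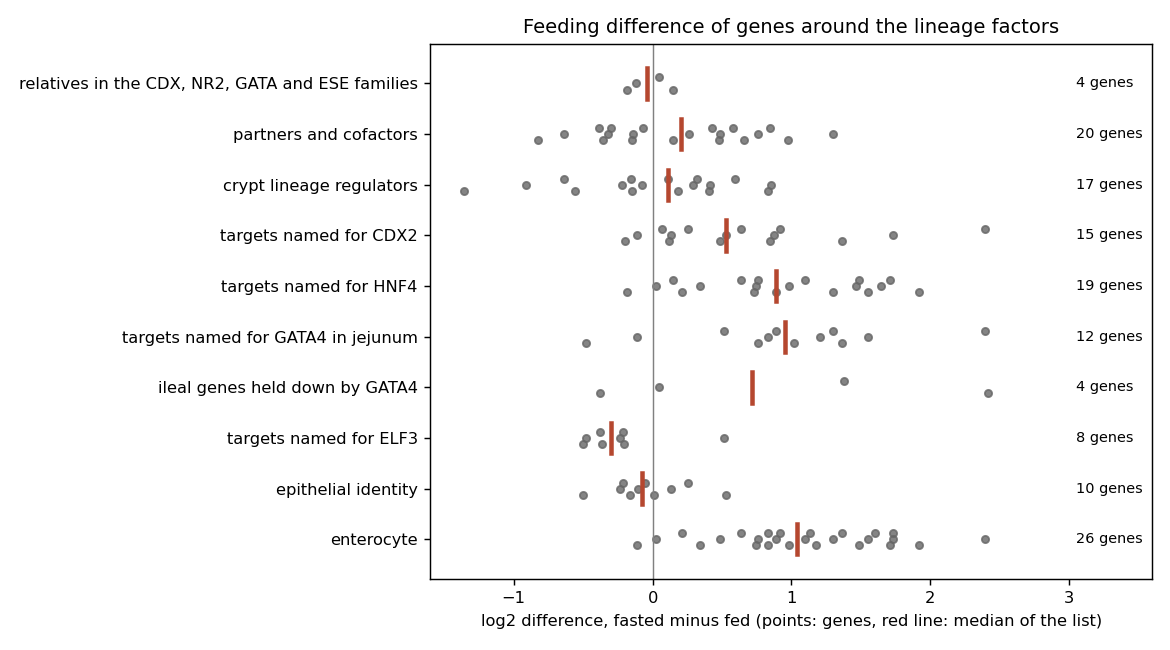
Each row plots the log2 difference, fasted minus fed, of every tested gene of a list as a point and the list's median as a red line. The target lists of CDX2, HNF4 and GATA4 have medians of 0.53, 0.89 and 0.95, the enterocyte list 1.04, the ELF3 targets -0.30 and the epithelial markers -0.08. Some genes stand on several of these lists.

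For the 6 members detected on all 8 arrays whose levels spanned at least 1 log2 unit, the genes of most similar pattern were taken by the smallest root mean square difference over the 8 arrays after centring each gene. Nearest to Cdx2 were Gramd4 (0.12), Nfs1 (0.13) and Zfp946 (0.13), beside a root mean square of 0.47 for Cdx2 itself. Nearest to Gata4 were Eci2 (0.10), Sgpl1 (0.11) and Htatsf1 (0.11). Nearest to Cdx1 were Smarce1 (0.06), Snx6 (0.06) and Prpf31 (0.07), and to Elf3 Cacna1a (0.11), Agrn (0.12) and Sra1 (0.13). Gata6 had no gene as near, its first being Rpp25 (0.19), Podxl (0.19) and Actl6a (0.19). Nearest to the Gata5 probe were Acad10 (0.06), Sstr4 (0.08) and Sh3glb2 (0.09). The Acad10 probe is shown because at least 1 run of 16 of its bases was found in 6 promoter windows, 0.0183% of all 32851. It shared such a run with 0 of the 39428 other probes, the Gata5 probe among them. Whether its letters bear on its likeness to the Gata5 probe was not tested. Bases 1 to 30 are printed, with the run found in the most windows in capitals.
Acad10: cttcAGAGACCTGCCTGCCTctgctttcca
The Sh3glb2 probe shared a run with 2 windows and the Sstr4 probe with 0.

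Whether the feeding difference depended on labelled sex was tested by a group by sex term. In limma 0 of 19488 genes passed (smallest adjusted p 0.758), and for 3.21% of them, 625 genes, the unadjusted p was under 0.05. None of the 8 members passed. For Hnf4g the difference was 2.40 among arrays labelled male and -0.07 among those labelled female, an interaction of 2.47 (SE 1.42) with an adjusted p of 0.758. The 2 arrays not well above background enter those values. In the same order, male and then female, the difference was -0.21 and 0.66 for Cdx1, 0.38 and -0.04 for Gata6, and -0.11 and 0.37 for Elf3. It was 0.74 and 0.75 for Cdx2, 0.23 and 0.28 for Hnf4a, 0.74 and 0.53 for Gata4, and -0.20 and -0.64 for Gata5. These values rest on labels that fed replicate 4 goes against.

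**Figure D4:**
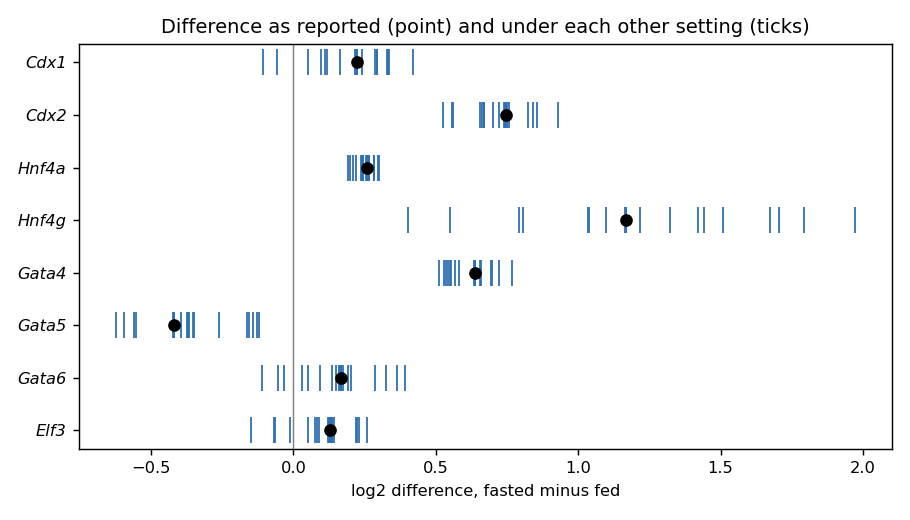
The x axis is the log2 difference, fasted minus fed, of each gene; the point is the value as reported and each tick is the value under 1 other processing setting or with arrays left out. The ticks of Cdx2 run from 0.53 to 0.93 and those of Hnf4a from 0.19 to 0.30, while those of Cdx1, Gata6 and Elf3 reach both sides of 0.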

How the data were processed

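The authors deposited 8 scanner files of spot intensities, written by Agilent's Feature Extraction software, version 11.5.1.1, per the submitters' processing notes, on 1 red Cy5 channel and with probe positions in mm9 per the file headers. The processed signal intensity in these deposited files is background-subtracted and not scaled between arrays. A deposited matrix of log2 signals for these arrays, with column medians of 7.73 to 8.33 and its scaling and centring not stated, served as an alternative.

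Control spots and outlier flags were left out, spots of a probe were averaged as log2 values, and each array's 75th percentile was subtracted. RefSeq accessions gave 27655 of 39429 probes their gene name, and the files the rest. A gene was tested where 4 or more of the 8 arrays measured its probe above background by the scanner's own call, with the brightest probe taken for a gene. No member or other non-control spot was saturated. Genes were tested with limma 3.58.1 in R 4.3.3 (lmFit, eBayes with trend, group and labelled sex as terms), with a Benjamini-Hochberg threshold of 0.05. Replicates are separate mice per the labels, and their number limits the precision. Deviations of the arrays on a shared slide from their group means correlated at 0.372, 0.536 and 0.606.

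The 8 members, the gene lists and the tests were chosen with earlier results of these data known. From each list the 4 genes with the smallest unadjusted p are named, except that some listed genes are not reported here, and further members, such as Atoh1, Hes1, Cdh17, Gucy2c, Mttp and Tgfbr2, were named after their values were seen. Other scalings, normexp with an offset of 50, the matrix, filters, probe rules, blocks, array weights, a covariate and left-out arrays were tried.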

Additional observations from a re-analysis of the deposited data

Results flagged for a closer look

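In 76 groups of 4 arrays, from the 8 members and 30 other genes drawn from the lists, 1 array lay far from the other 3 in 4 groups by Dixon's ratio (above the 95% critical value), where chance gives about 1 in 20. In fed crypts Cdx2 was at 0.80 in replicate 4 and between 1.17 and 1.21 in the others (ratio 0.893). Gata4 was at -0.18 in fed replicate 1 and between -0.71 and -0.67 in the others (ratio 0.92). Id1 was at 0.63 in fed replicate 4 and between -0.20 and -0.09 in the others (ratio 0.868). Fabp6 was at 0.99 in fasted replicate 4 and between -0.12 and 0.03 in the others (ratio 0.872).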

How the results depend on the processing

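Over 25 alternatives 0 members and 0 genes passed limma's adjusted threshold for feeding, as in the fit reported. The median over the members ran from 0.166 to 0.351, and with arrays left out singly from 0.171 to 0.35. Cdx2 (0.527 to 0.93), Hnf4a (0.193 to 0.302), Hnf4g (0.402 to 1.974), Gata4 (0.511 to 0.769) and Gata5 (-0.622 to -0.122) kept their direction in every alternative that gave a value. The smallest adjusted p of a member was 0.0629, for Cdx2 with each array's percentage of measured probes added as a covariate, where it differed by 0.855. With slide as a fixed block in place of the sex term Gata6 turned to -0.053 and Elf3 to -0.147, with slide as a random block Gata6 to -0.032, and with array weights Elf3 to -0.011. With arrays left out singly Cdx1 ran from -0.059 to 0.336, Gata6 from -0.111 to 0.391 and Elf3 from -0.065 to 0.231. Without fasted replicate 3 Cdx1 was at -0.059 and Elf3 at -0.065, without fed replicate 2 Gata6 was at -0.111, and without fasted replicate 3 and fed replicate 4 Cdx1 was at -0.107 and Elf3 at -0.067. The cause of these turns was not tested. Deviations from the group means correlated at 0.372, -0.469, -0.446 and 0.606 for arrays numbered 1 to 4 in both groups. Those numbered 1 and 4 share a slide and those numbered 2 and 3 do not, so the numbers were not taken to pair the arrays. The replicate number as a replicate block in place of the sex term left Cdx2 at 0.747 (adjusted p = 0.752) and 0 genes past the threshold. With the detection filter set to all 8 arrays Hnf4g was not tested.

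The count of members whose groups did not overlap was an alternative chosen after seeing the data. It was 2 with quantile scaling, 0 with median scaling, 1 with normexp (Hnf4a) and 1 in the authors' deposited matrix (Cdx2). In that order, the fasted arrays lay higher without overlap for 2.91%, 1.59%, 2.17% and 3.12% of all genes. With arrays left out singly the count was 2 to 3. Groups of 3 against 4 separate more easily, and the share of all genes was not counted there. For the group by sex term, leaving out arrays singly gave from 0 to 2224 genes. The 2224 came without fasted replicate 4 and 1 gene without fed replicate 2, fits that leave a lone array in a sex and group, whose spread is taken to equal that of the others. Every fit with 1 array left out leaves such a lone array, so this does not set those fits apart. Without fasted replicate 4 the lone array is fasted replicate 3, the array least like the rest. Why the counts differed between the fits was not tested, and no dependence on sex is read from them. Signal over background limits the Hnf4g probe, which was measured on 6 arrays.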
